A study of Mus musculus with 24 samples.

Results

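Granzymes, perforin and receptor chains of lymphocytes were followed in cultures labelled as macrophages. The 10 genes were Gzma, Gzmb, Gzmc, Prf1, Cd3d, Cd3g, Cd8a, Cd79b, Nkg7 and Il2rb, which the platform annotation names on 16 of the 45037 probe sets measured, out of 18193 genes in all. They were selected on their measured ratios, which were high in Stat6 knockout (KO) cultures with IL-4, so every comparison that holds KO arrays is given below as a description with no test. Tests were made only between groups of wild-type (WT) arrays, and the genes were not chosen on the WT differences. These tests were still not independent of the choice. Their estimate of the spread was pooled over all groups, the KO IL-4 arrays among them. The probe set read for each gene was also picked by its mean over all arrays. Counts from fits to fewer arrays are given below.

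Bone marrow of 3 KO mice (mice 4, 5 and 6) and 3 WT C57Bl/6 mice (mice 1, 2 and 3) was cultured for 10 days in M-CSF at 20 ng/ml, the growth factor from which macrophages arise. The Stat6-/- animals were bought from a commercial supplier, and Stat6 is lacking in all of their cells, not in macrophages alone. By the numbers in the sample titles, read as mice, each mouse gave 4 cultures. These received IL-4 at 20 ng/ml or no IL-4 (control). Each also received 1 µM of the PPARγ agonist rosiglitazone (RSG) or its vehicle, a mixture of DMSO and ethanol. This gave 8 groups of 3 arrays (KO IL-4 RSG, KO IL-4 vehicle, KO control RSG, KO control vehicle, and the same 4 for WT), 1 array per culture. Each value was a probe set's signal over its median among the arrays and is given here as a log2 ratio. A log2 ratio of 0 is therefore the middle of the 24 arrays and not the absence of RNA, and different probe sets cannot be ranked by it. The arrays measured RNA from whole cultures, in which more cells of a type and more RNA per cell cannot be told apart.

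Granzymes are serine proteases that cytotoxic T cells and natural killer (NK) cells store in granules and release into target cells through pores made by perforin. Several granzyme genes lie beside the mast cell protease genes, and mast cells and some activated myeloid cells can also make granzyme B. The CD3 chains carry the signal of the T cell receptor, CD8 is its co-receptor on cytotoxic T cells, and CD79B does the corresponding work for the B cell receptor. IL-4 acts through a receptor that activates STAT6, the factor missing in the KO.

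Stat6 itself lay between -2.12 and -1.48 on the 12 KO arrays and between 0.71 and 1.14 on the 12 WT arrays by 1 probe set (by the other, -2.03 to -1.56 and 0.73 to 1.15), so the arrays matched their labelled genotypes. The macrophage list (13 genes measured, among them Csf1r, Cd68 and Adgre1) had a mean log2 ratio between -0.58 and 0.26 over all 24 arrays. It was lowest on the WT IL-4 arrays, at -0.58 to -0.37, against -0.25 to 0.26 on the others. A ratio to the median cannot show whether a marker is absent. In WT with vehicle limma called 4 of the 13 lower with IL-4, among them Cd14 (-2.51) and the Fc receptor gene Fcgr1 (-2.27), and 1 higher (9.36% of all genes were called higher and 6.57% lower). Stromal fibroblast markers (15 genes) stood high on the KO control RSG arrays, at list means of 1.69 to 5.45, and reached 3.46 among the WT control vehicle arrays, against -0.74 to 0.72 on the arrays of the other groups. The WT control vehicle array of mouse 3 stood apart for the genes described here. It was the highest of its group for 10 of the 10 genes. It was also the highest for the T cell, NK cell, B cell, mast cell and macrophage lists and the other lists used below. The exceptions were the plasmacytoid dendritic cell and stromal lists, for which it was the lowest. Where leaving it out changed a call among the genes named below, the value without it is given.

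The 250 bases before the annotated start were read for the genes with an entry in the RefSeq promoter table (GRCm38.p6), which held 8 of the 10. Cd79b and Il2rb were not among them. The promoters of 3 granzyme genes are shown because the highest IL-4 difference of the 10 with vehicle was that of Gzmb in KO and of Gzma in WT, and Gzmc lies beside Gzmb, and those of Cd3d and Nkg7 because they alone of the 8 held a STAT-type motif. Capitals mark matches, on either strand, to TTCNNNGAA (STAT-type), TGTGGT (the core bound by RUNX factors, which reads ACCACA on the other strand) or TGANTCA (AP-1). The Gzma window lies at chr13:113100982-113101231, minus strand; Gzmb at chr14:56262335-56262584, minus strand; Gzmc at chr14:56234658-56234907, minus strand; Cd3d at chr9:44981536-44981785, plus strand; and Nkg7 at chr7:43436888-43437137, plus strand. Each is printed 5′ to 3′ on the strand of its gene and ends at the base before the start.
Gzma: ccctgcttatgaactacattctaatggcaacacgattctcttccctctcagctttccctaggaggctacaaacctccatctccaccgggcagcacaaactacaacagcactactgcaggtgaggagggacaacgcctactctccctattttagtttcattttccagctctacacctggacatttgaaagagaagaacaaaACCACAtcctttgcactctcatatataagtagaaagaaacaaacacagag
Gzmb: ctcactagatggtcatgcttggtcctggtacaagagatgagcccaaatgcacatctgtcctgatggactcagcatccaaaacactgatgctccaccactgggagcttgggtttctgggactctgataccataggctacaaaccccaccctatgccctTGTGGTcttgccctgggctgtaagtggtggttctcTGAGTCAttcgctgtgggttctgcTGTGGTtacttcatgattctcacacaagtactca
Gzmc: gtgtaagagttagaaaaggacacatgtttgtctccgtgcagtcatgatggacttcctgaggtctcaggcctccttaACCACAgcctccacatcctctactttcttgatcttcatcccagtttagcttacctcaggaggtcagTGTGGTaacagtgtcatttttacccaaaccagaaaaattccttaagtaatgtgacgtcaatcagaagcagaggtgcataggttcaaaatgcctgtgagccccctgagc
Cd3d: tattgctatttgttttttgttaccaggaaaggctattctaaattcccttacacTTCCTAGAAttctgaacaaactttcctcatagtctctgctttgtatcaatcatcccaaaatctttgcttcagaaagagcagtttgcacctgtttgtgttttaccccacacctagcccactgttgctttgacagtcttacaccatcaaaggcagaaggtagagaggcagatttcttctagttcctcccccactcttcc
Nkg7: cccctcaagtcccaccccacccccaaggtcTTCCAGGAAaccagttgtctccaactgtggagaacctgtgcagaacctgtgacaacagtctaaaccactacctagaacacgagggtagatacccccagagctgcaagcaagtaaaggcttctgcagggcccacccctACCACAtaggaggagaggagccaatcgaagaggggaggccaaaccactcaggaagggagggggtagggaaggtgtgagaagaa

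The STAT6-type motif, TTC and GAA with 4 bases between them, the spacing that STAT6 prefers, was in none of the 8 windows (0 of 8) and in 5.85% of 32851 promoter windows of the same length. The STAT-type motif began at position -197 of Cd3d and -220 of Nkg7, counted from the start, and was in 7.02% of all windows. TGTGGT was in 5 of 8 windows (Gzma, Gzmb, Gzmc, Prf1 and Nkg7) and in 14.0% of all windows, and Gzmb and Gzmc each held 2 matches. The AP-1 motif was in the Gzmb window alone, against 6.75% of all windows. The matches in the printed windows did not overlap each other. A match says only that these letters are present.

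Gzma encodes granzyme A, a tryptase stored in the granules of cytotoxic lymphocytes, and it was the one gene of the 10 that was highest in WT and not in KO. In KO IL-4 vehicle cultures its log2 ratio was 2.44, 1.74 and 2.66 (mice 4, 5 and 6), against -2.42, -2.97 and -2.82 in KO control vehicle cultures. In WT IL-4 vehicle cultures it was 2.75, 3.95 and 4.64 (mice 1, 2 and 3), against -2.63, -4.17 and -1.70 in WT control vehicle cultures. With IL-4 every array of either genotype lay above every array without it. The difference in WT was 6.61 ± 0.54 (SE, n = 3 against 3; limma adjusted p = 1.12e-07), a 98.01-fold increase. Under RSG it was 5.55 ± 0.54 (limma adjusted p = 8.91e-07), and the call held in all 17 alternative settings in both comparisons. The IL-4 difference in KO was 5.01 with vehicle and 3.73 with RSG. The 3 KO IL-4 vehicle arrays all lay below the 3 WT IL-4 vehicle arrays (KO minus WT, -1.50), and the KO IL-4 RSG arrays lay below the WT IL-4 RSG arrays (-2.91). By its means Gzma ran from WT IL-4 RSG (3.86 ± 0.44, SD) and WT IL-4 vehicle (3.78 ± 0.96), which overlapped, through KO IL-4 vehicle (2.28 ± 0.48) and KO IL-4 RSG (0.95 ± 0.37) to WT control RSG (-1.70 ± 0.17), with no overlap between these neighbours. The other 3 groups overlapped each other at means of -2.83 to -2.74.

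Gzmb encodes granzyme B, the protease that cleaves caspases in target cells, and it had the widest span. Its log2 ratio was 6.59, 6.28 and 6.72 in KO IL-4 vehicle cultures and -3.89, -5.63 and -1.21 in KO control vehicle cultures. In WT it was 0.65, 1.61 and 2.95 with IL-4 and vehicle, against -1.36, -5.87 and -1.29 in control vehicle cultures. IL-4 arrays of both genotypes lay above all control arrays, which were spread between -6.64 and -1.21. In WT the difference was 4.58 ± 1.27 (limma adjusted p = 0.0177) with vehicle and 5.55 ± 1.27 (adjusted p = 0.00445) with RSG. The vehicle call was lost without mouse 2 (3.13, adjusted p = 0.229), without mouse 3 (4.75, adjusted p = 0.0789), without the arrays with the highest stromal markers (3.06, adjusted p = 0.0501), with the methods' t-test (adjusted p = 0.208) and when only the compared arrays were fitted (adjusted p = 0.14). The RSG call was lost without mouse 1 (adjusted p = 0.0515). In KO the difference was 10.10 with vehicle and 10.63 with RSG. The second of these is a lower bound, because the KO control RSG array of mouse 4 was at the lowest ratio in the table, 0.01 (log2 -6.64). The order was KO IL-4 vehicle (6.53 ± 0.22, SD), KO IL-4 RSG (6.06 ± 0.21) and WT IL-4 RSG (2.17 ± 0.47), which did not overlap. WT IL-4 vehicle (1.74 ± 1.16) overlapped WT IL-4 RSG and lay above the control groups, which overlapped each other.

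Gzmc, the next gene beside Gzmb, encodes a granzyme of activated killer cells, and it stood apart in KO cultures with IL-4. It stood at 6.58, 6.82 and 7.21 in KO IL-4 vehicle cultures, against -2.33, 0.36 and -0.02 in KO control vehicle cultures. In WT IL-4 vehicle cultures it was 1.24, -2.0 and 0.18, against -1.92, -2.92 and -0.53 in WT control vehicle cultures. The KO IL-4 arrays stood above all others, and the WT groups overlapped. The KO difference was 7.54 with vehicle and 6.12 with RSG. In WT it was 1.60 ± 0.93 (limma adjusted p = 0.298) with vehicle and -0.50 ± 0.93 (adjusted p = 0.802) with RSG, neither of which passed the test. In its order KO IL-4 vehicle (6.87 ± 0.32, SD) and KO IL-4 RSG (5.10 ± 0.06) came first without overlap. The other 6 groups, at means of -1.79 to -0.19, each overlapped their neighbour.

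Prf1 encodes perforin, the pore former of cytotoxic granules, and it moved least. Its probe set with the higher mean gave 0.77, 0.39 and 0.98 in KO IL-4 vehicle cultures, against -0.63, -0.53 and 0.45 in KO control vehicle cultures, and these groups overlapped. In WT it gave -0.17, 0.59 and 0.40 with IL-4 and vehicle, against -0.13, -0.19 and 0.01 in control vehicle cultures. All 8 groups overlapped their neighbours in order of level. The IL-4 difference was 0.95 in KO and 0.37 ± 0.34 in WT (limma adjusted p = 0.547) with vehicle, and 0.85 in KO and 0.40 ± 0.34 in WT (adjusted p = 0.505) with RSG. The other Prf1 probe set went the other way in KO, at -0.40, -0.52 and -0.41 in IL-4 vehicle cultures against 0.04, 0.32 and 0.67 in control vehicle cultures, without overlap. The Prf1 probe sets thus disagreed in direction in KO.

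**Figure D1:**
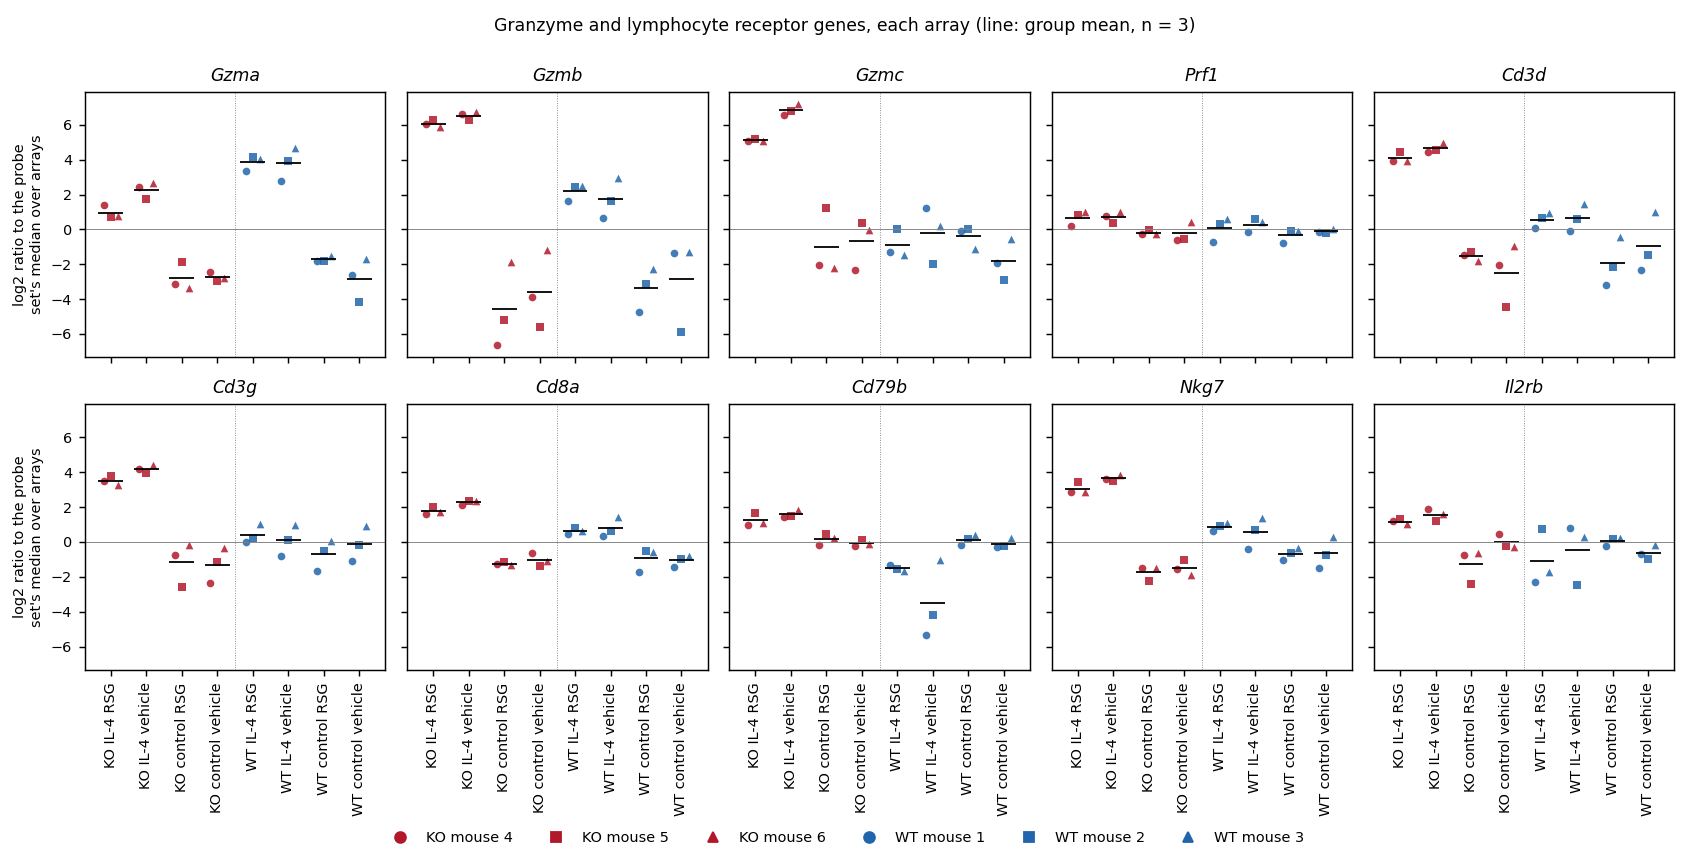
Log2 ratio, relative to the median array (y axis), of the 10 genes, 1 panel each, in the 8 groups (x axis, KO left of WT); points are arrays, with shapes for the 3 mice of a genotype, and lines are group means. KO IL-4 arrays stand above all control arrays for 9 of the genes (not Prf1), and Gzma is highest in WT IL-4 cultures (2.75 to 4.64).

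Cd3d encodes the δ chain of the CD3 complex. In KO IL-4 vehicle cultures it was at 4.46, 4.55 and 4.96, against -2.04, -4.44 and -0.95 in KO control vehicle cultures, a difference of 7.13. WT IL-4 vehicle cultures gave -0.10, 0.62 and 1.45, against -2.33, -1.46 and 1.01 in WT control vehicle cultures. These WT groups overlapped through the control array of mouse 3, and the difference of 1.58 ± 0.84 did not pass (limma adjusted p = 0.239). Without that array it was 2.55 and passed (adjusted p = 0.0431). Under RSG the WT difference was 2.50 ± 0.84 (adjusted p = 0.0471), with 0.09, 0.64 and 0.95 in WT IL-4 RSG cultures against -3.18, -2.17 and -0.46 in WT control RSG cultures. That call was lost in 10 of 17 alternative settings, with adjusted p up to 0.248.

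Cd3g encodes the γ chain of the same complex and lies beside Cd3d on the opposite strand, with starts 1355 bases apart. It stood at 4.17, 3.99 and 4.40 in KO IL-4 vehicle cultures, against -2.38, -1.16 and -0.36 in KO control vehicle cultures, a difference of 5.49. In WT IL-4 vehicle cultures it was -0.80, 0.11 and 0.99, against -1.08, -0.18 and 0.90 in WT control vehicle cultures. The WT groups overlapped almost fully, with a difference of 0.22 ± 0.66 (limma adjusted p = 0.885). Taken within each WT mouse, the difference ran from 0.09 to 0.30. Under RSG the difference of group means was 4.68 in KO and 1.14 ± 0.66 in WT (adjusted p = 0.287). For both CD3 chains KO IL-4 vehicle and KO IL-4 RSG were the highest groups without overlap, and the 6 groups below each overlapped their neighbour.

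Cd8a encodes the α chain of CD8 and was measured by 5 probe sets. On the one with the highest mean, KO IL-4 vehicle cultures gave 2.14, 2.34 and 2.35, against -0.66, -1.38 and -1.12 in KO control vehicle cultures. WT IL-4 vehicle cultures gave 0.37, 0.62 and 1.42, against -1.44, -0.96 and -0.79 in WT control vehicle cultures. IL-4 arrays of both genotypes lay above all arrays without IL-4. The difference was 3.33 in KO and 1.87 ± 0.30 in WT (limma adjusted p = 0.000232, 3.65-fold). Under RSG it was 3.03 in KO and 1.57 ± 0.30 in WT (adjusted p = 0.00111). In WT with vehicle a further 2 of the other 4 probe sets were called higher, at 2.44 ± 0.75 (adjusted p = 0.032) and 1.01 ± 0.34 (adjusted p = 0.0492), 1 gave 1.60 ± 1.04 (adjusted p = 0.364) and 1 gave -0.12 ± 0.38 (adjusted p = 0.895). Under RSG none of these 4 passed. The call on the first was lost with the methods' t-test with vehicle (adjusted p = 0.0692) and in 3 of 17 settings under RSG, the mean of all probe sets among them, with adjusted p up to 0.108. In KO all 5 were higher with IL-4 without overlap, by 0.54 to 4.13. Cd8b1, the gene next to Cd8a and the partner chain of CD8, differed by 4.86 in KO and by -0.03 in WT. In the order of Cd8a, KO IL-4 vehicle (2.28 ± 0.11, SD) lay above KO IL-4 RSG (1.77 ± 0.20), then came WT IL-4 vehicle (0.80 ± 0.55) and WT IL-4 RSG (0.63 ± 0.16), which overlapped, and then the 4 control groups, which overlapped their neighbours.

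Cd79b encodes the β chain of the B cell receptor signalling unit, and it moved in opposite directions in the genotypes. KO IL-4 vehicle cultures gave 1.44, 1.49 and 1.85, against -0.25, 0.10 and -0.11 in KO control vehicle cultures. WT IL-4 vehicle cultures gave -5.37, -4.20 and -1.01, against -0.30, -0.26 and 0.25 in WT control vehicle cultures. Neither pair overlapped, and the WT IL-4 array of mouse 3 lay far above the other two. The difference was 1.68 in KO and -3.42 ± 0.66 in WT, where it was called lower (limma adjusted p = 0.00117). The WT call was lost with the methods' t-test (adjusted p = 0.228) and when only the compared arrays were fitted (adjusted p = 0.157). Under RSG the difference was 1.07 in KO and -1.64 ± 0.66 in WT (adjusted p = 0.102), with -1.30, -1.54 and -1.68 in WT IL-4 RSG cultures against -0.17, 0.18 and 0.41 in WT control RSG cultures. Cd79b was thus lowest in the 2 WT IL-4 groups, vehicle (-3.53 ± 2.25, SD) and RSG (-1.50 ± 0.19). These overlapped each other and lay below all controls. KO IL-4 vehicle (1.59 ± 0.22) and KO IL-4 RSG (1.24 ± 0.36) were highest and overlapped each other, and the 4 control groups between overlapped their neighbours (-0.10 to 0.17).

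Nkg7 encodes a granule membrane protein of NK and cytotoxic T cells. It was 3.61, 3.5 and 3.84 in KO IL-4 vehicle cultures, against -1.56, -1.02 and -1.91 in KO control vehicle cultures, a difference of 5.15. WT IL-4 vehicle cultures gave -0.39, 0.67 and 1.39, against -1.48, -0.76 and 0.27 in WT control vehicle cultures. The WT groups overlapped, and 1.21 ± 0.42 did not pass (limma adjusted p = 0.059). With the mouse as a block it passed (adjusted p = 0.0152), as it did among probe sets with a median of 1, and it was 1.67 without the control array of mouse 3 (adjusted p = 0.0109). Under RSG 1.52 ± 0.42 passed in WT (adjusted p = 0.0166), and the call was lost without mouse 2 (adjusted p = 0.135) or with WT arrays alone (adjusted p = 0.0797). The KO difference under RSG was 4.80. By level, KO IL-4 vehicle (3.65 ± 0.17, SD) and KO IL-4 RSG (3.05 ± 0.32) stood first without overlap, the 4 WT groups followed with overlapping neighbours (-0.66 to 0.86), and the KO control groups were lowest, at -1.50 ± 0.45 with vehicle and -1.75 ± 0.43 with RSG.

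Il2rb encodes the β chain shared by the IL-2 and IL-15 receptors, which T and NK cells need for growth. Its probe sets disagreed in WT, and on the difference between the genotypes in control vehicle cultures. The one with the higher mean gave 1.90, 1.21 and 1.59 in KO IL-4 vehicle cultures, against 0.46, -0.26 and -0.28 in KO control vehicle cultures, and 0.79, -2.46 and 0.30 in WT IL-4 vehicle cultures, against -0.68, -0.96 and -0.19 in WT control vehicle cultures. The WT difference was 0.16 ± 0.75 (limma adjusted p = 0.932) with vehicle and -1.16 ± 0.75 (adjusted p = 0.351) with RSG. The other probe set differed by 0.48 ± 0.81 with vehicle and 1.85 ± 0.81 with RSG in WT, where neither passed. In KO with vehicle it differed by 5.63, against 1.59 for the first. In WT with RSG the first was called lower without mouse 2 (adjusted p = 0.0182), while the mean of both turned the direction, to 0.35. By level, KO IL-4 vehicle (1.57 ± 0.35, SD) and KO IL-4 RSG (1.17 ± 0.14) overlapped each other and no other group, and the other 6 overlapped their neighbours (-1.27 to 0.05).

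**Figure D2:**
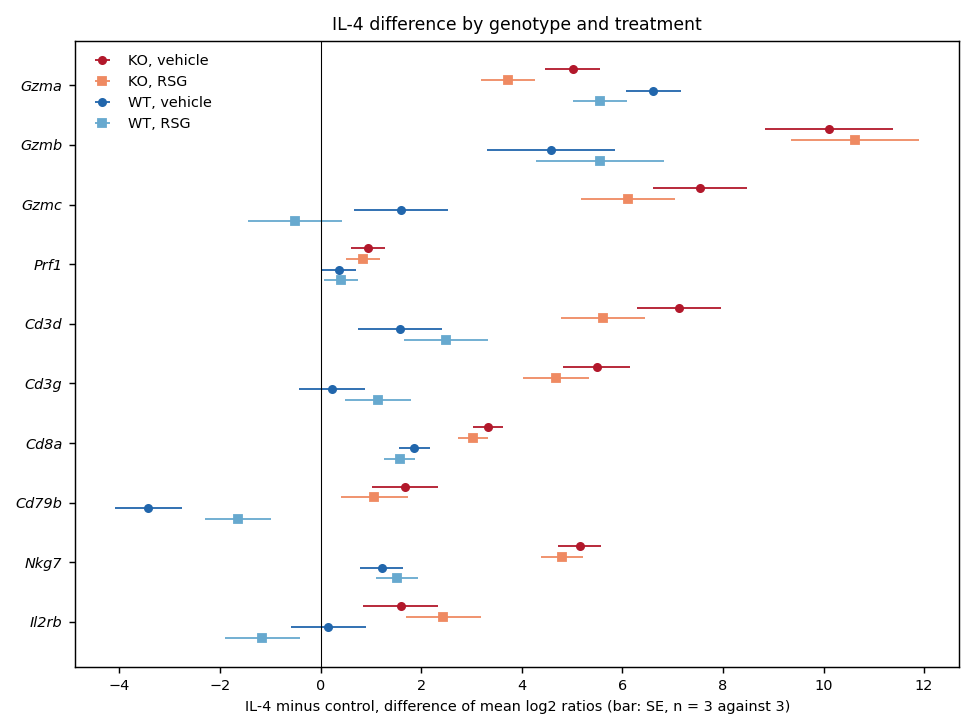
IL-4 minus control difference of mean log2 ratios (x axis; bar, SE, n = 3 against 3) of the 10 genes (y axis) in KO and WT cultures with vehicle or RSG. The KO values are the larger for 9 genes, and for Gzma the KO value is the smaller (5.01 in KO and 6.61 in WT with vehicle).

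Counted together, in WT with vehicle IL-4 raised 3 of the 10 genes and lowered 1, where 9.36% of all genes were called higher and 6.57% lower. Under RSG it raised 5 and lowered 0, against 10.6% and 5.64% of all genes. For RSG in WT limma made 0 calls among the 10 without IL-4 (0.033% of genes called higher and 0.115% lower, and 0 of the 10 at an unadjusted p under 0.05) and 0 with IL-4 (0.423% and 0.412%, and 1 at an unadjusted p). The interaction of RSG with the IL-4 difference in WT passed for 0 of the 10, at adjusted p of 0.864 to 1. In KO with vehicle 9 of 10 genes and 14 of 16 probe sets stood above their controls without overlap, where 11.8% of genes and 10.4% of probe sets did, and 0 genes and 1 probe set stood below (23.2% of genes and 21.5% of probe sets). Under RSG 10 of 10 stood above (11.3% of all genes) and 0 below (15.9%). These counts follow from how the genes were chosen.

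KO IL-4 arrays lay above WT IL-4 arrays without overlap for 8 of 10 genes and below for 1, Gzma, with vehicle (11.9% of genes higher and 34.7% lower), and likewise 8 and 1 with RSG (11.4% and 31.1%). The median KO minus WT difference of the 10 genes was 3.55 with vehicle and 2.51 with RSG, against -0.29 and -0.22 over all genes. With vehicle it lay between -1.50 for Gzma and 7.06 for Gzmc, with Cd79b at 5.12, Gzmb at 4.79, Cd3g at 4.09 and Cd3d at 4.00. Without IL-4 none of the 10 stood apart with vehicle (4.61% of genes higher and 11.3% lower), and 0 above and 3 below (Gzma, Nkg7 and Il2rb) with RSG (4.28% and 11.6%). These counts use 1 probe set per gene. With vehicle 1 of the 16 probe sets, the other one of Il2rb, was lower in KO without overlap (10.2% of all probe sets). It ran from -3.89 to -1.66 in KO control vehicle cultures, against -1.23 to 0.56 in WT control vehicle cultures. The median difference of the 10 genes without IL-4 was -0.06 with vehicle and -0.53 with RSG.

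RSG in KO cultures with IL-4 was given by the difference in each mouse. The 3 mice all had lower values with RSG for 7 of the 10 genes, and for none were all 3 higher. Gzmc stood at 5.07, 5.17 and 5.07 in KO IL-4 RSG cultures, against the 6.58, 6.82 and 7.21 in KO IL-4 vehicle cultures given above, and Gzma at 1.37, 0.72 and 0.75, against 2.44, 1.74 and 2.66. Neither pair overlapped. Gzmc differed by -1.77 (between -2.14 and -1.51), Gzma by -1.33, Cd3g by -0.68 and Nkg7 by -0.60, while the median over all genes was 0.03. The arrays did not overlap for 7 genes that were lower and 0 that were higher, against 6.89% and 7.42% of all genes, and the choice of the genes used these arrays. Without IL-4 RSG left 1 of the 10 lower and 0 higher in KO without overlap (10.2% and 4.75% of all genes). In WT with IL-4 the differences between RSG and vehicle went in both directions among the 3 mice for 9 of the 10 genes. Mast cell and basophil markers moved differently in the same KO cultures, with 6 of 12 higher without overlap and 0 lower, and the cause was not tested.

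**Figure D3:**
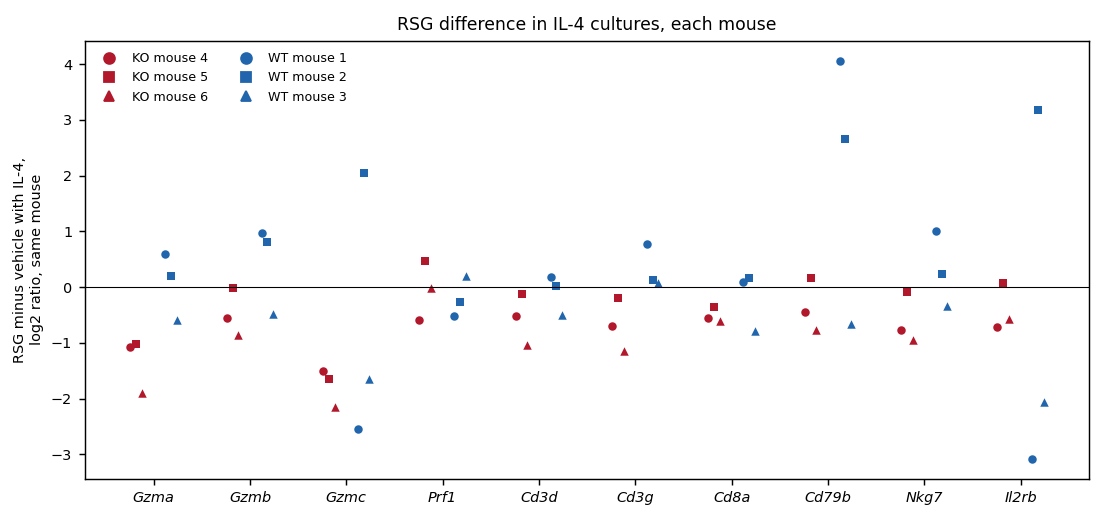
RSG minus vehicle in IL-4 cultures of the same mouse (y axis, log2 ratio) for the 10 genes (x axis), KO points left of WT points and shapes as mouse numbers. KO points lie below 0 for 7 genes in all 3 mice, and WT Cd79b reaches 4.06 and Il2rb runs from -3.08 to 3.18.

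The neighbours of these genes on the chromosome were followed through the locus that holds Gzmb and Gzmc, where 15 protease genes follow one another in the RefSeq gene table. In KO with vehicle 12 of the 13 measured genes of the locus were higher with IL-4 without overlap and 0 were lower, against 11.8% and 23.2% of all genes, with a median difference of 6.34. Gzmb and Gzmc are 2 of these, and of the other 11 genes 10 were higher. Mcpt8, the basophil marker, differed by 9.28, Cma1 by 7.23, Gzmg by 6.66 and Gzmd by 6.34. Gzmn was the exception, at -0.73. In WT limma called 2 of the 13 higher (Gzmb and Mcpt2, 1.73 with adjusted p = 0.0311) and 0 lower, against 9.36% and 6.57% of all genes, and the locus median was 1.17 against 0.12 over all genes. These genes are paralogs of one another, and how far their probe sets tell them apart was not tested.

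**Figure D4:**
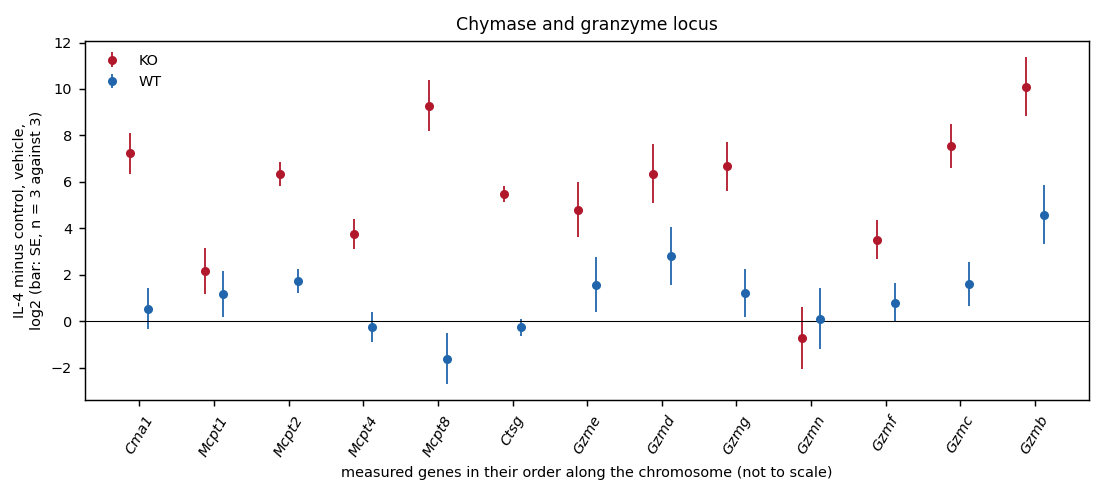
IL-4 minus control with vehicle (y axis, log2; bar, SE, n = 3 against 3) of the 13 measured genes of the chymase and granzyme locus in their order along the chromosome (x axis, not to scale), KO left of WT. In KO all but Gzmn are above 0, with Gzmb (10.10) and Mcpt8 (9.28) highest, and in WT Gzmb is highest (4.58).

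Genes of related function were counted from lists, which hold some of the 10 genes too, so that the KO counts draw in part on the values by which those were chosen. Over all genes 11.8% stood above and 23.2% below in KO with vehicle. In KO IL-4 vehicle cultures 16 of 23 cytotoxic genes stood above KO control vehicle cultures without overlap and 1 below, with Ifng at 5.13, Fasl, the ligand of the death receptor FAS, at 3.89 and Gzmk at 2.39. Without the 5 of the 10 genes that it holds, 12 of 18 were above and 1 below. Of 18 measured T cell genes 12 were above and 1 below, among them Cd2 at 4.92, Cd3e at 3.44 and the kinase Zap70 at 3.24, while Cd247, the ζ chain, differed by 0.18 and Cd4 by -1.17. Without Cd3d, Cd3g and Cd8a it was 9 of 15 above and 1 below. Of 11 genes of the NK cell list 9 were above and 1 below, with Xcl1 at 6.00, Txk at 5.80, Klrc1 at 5.68, Klrd1 at 5.19 and Ncr1 at 2.15. The 1 below was Klrc2, at -2.24, and Klrg1 overlapped, at 0.32. Of 15 B lineage genes 5 were above and 1 below, with Cd79a, the partner of CD79B, at 4.03 and Ms4a1 (CD20) at 3.83, while Pax5 differed by -1.08, Cd22 by -0.14 and Ighm by 0.18. Without Cd79b it was 4 of 14 above and 1 below. Of 12 lymphoid transcription factors 11 were above and 0 below, with Eomes at 4.76 and Ikzf3 at 4.17. Of 12 mast cell and basophil markers 10 were above and 0 below, with Fcer1a, the α chain of the IgE receptor, at 9.55.

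In WT with vehicle, where 9.36% of all genes were called higher and 6.57% lower, limma called 4 of 23 cytotoxic genes higher, Gzma, Gzmb, Serpinb9 (1.81, the inhibitor of granzyme B) and Srgn (1.06, the granule proteoglycan), and 1 lower, Stx11 (-0.62). Of the T cell genes Cd8a and Lat (2.17) were called higher and Cd28 (-1.59) and Cd2 (-1.75) lower, 2 of 18 in each direction, while Cd3e differed by 0.81. Of the NK genes Klrc1 was called lower (-3.12), and none was called higher. Eomes (3.02), Nfil3 (1.80) and Ets1 (1.58) were called higher, and Eomes lost its call in 3 of 17 settings, with adjusted p up to 0.155. Cish (3.52), a feedback gene of cytokine receptors, was called higher, and Il15 (-1.30), whose product binds IL2RB, lower. The calls of Stx11, Cd2, Klrc1 and Mcpt2 were each lost in at least 8 of 17 settings. Without the control array of mouse 3 Stx11 was at -0.66 (limma adjusted p = 0.08), Cd2 at -1.11 (adjusted p = 0.25), Klrc1 at -2.66 (adjusted p = 0.126) and Mcpt2 at 1.76 (adjusted p = 0.0679). Csf1r, 1 of the 4 macrophage genes called lower, then fell short of 1.5-fold, at -0.56. Mast cell markers gave 0 calls with vehicle and 3 of 12 with RSG (10.6% of all genes), Cpa3 (4.37), Fcer1a (4.13) and Kit (1.89). Of these, Kit lost its call in 6 of 17 settings, Cpa3 in 3 and Fcer1a in 2.

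By array, the T cell list had a mean of 1.78 to 2.31 on KO IL-4 vehicle arrays, against -0.57 to -0.18 on KO control vehicle arrays, and -0.50 to 0.11 on WT IL-4 vehicle arrays, against -1.0 to 0.10 on WT control vehicle arrays. The NK list gave 2.43 to 2.88 on KO IL-4 vehicle arrays, against -1.42 to -1.24 on WT IL-4 vehicle arrays. The mast cell list gave 4.29 to 4.75 on KO IL-4 vehicle arrays, against -0.84 to 0.00 on WT IL-4 vehicle arrays. The 10 genes and the mast cell list were thus both high in KO IL-4 cultures, and whether 1 kind of cell held both was not tested. Of 13 macrophage genes 4 were above and 7 below in KO IL-4 vehicle cultures without overlap (11.8% and 23.2% of all genes).

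**Figure D5:**
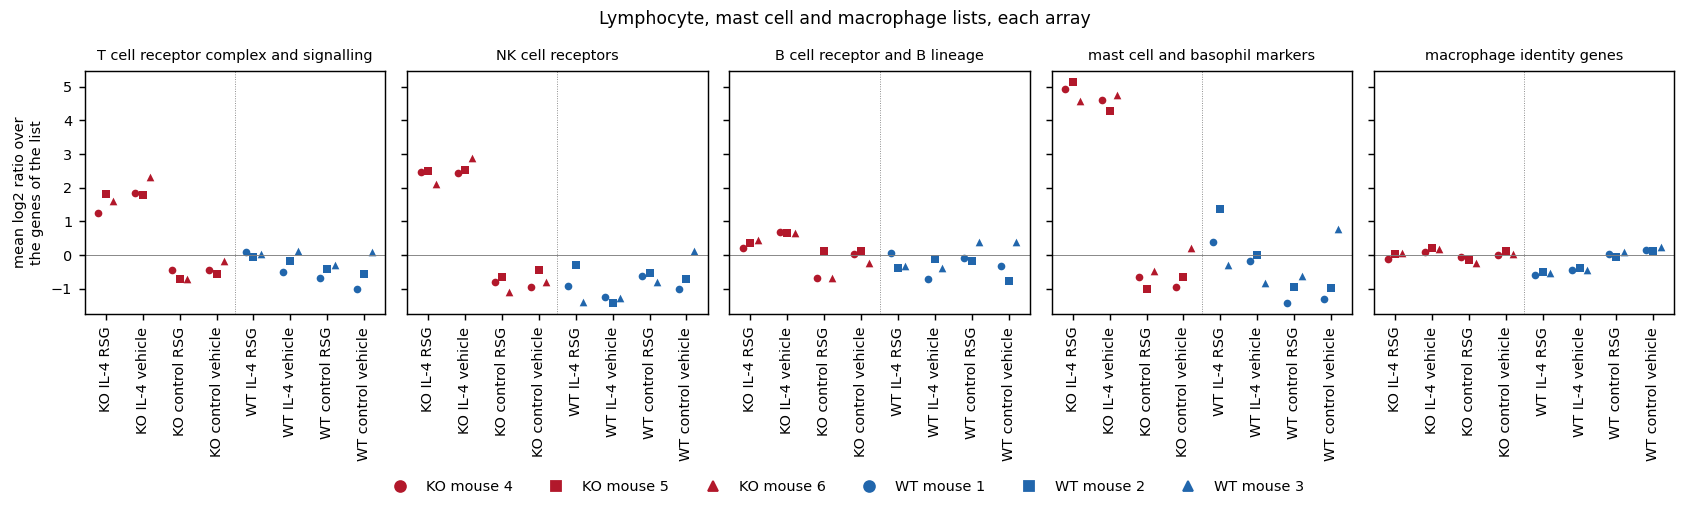
Mean log2 ratio over the genes of 5 lists (y axis, 1 panel each) in the 8 groups (x axis, KO left of WT); points are arrays. KO IL-4 arrays stand highest for the T cell, NK cell and mast cell lists (mast cell list, 4.29 to 5.15). The macrophage list is lowest on the WT IL-4 arrays (-0.58 to -0.37), against -0.25 to 0.26 on the others.

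The genes whose pattern over the 24 arrays was most like the mean of the 10 were Hopx (Pearson r = 0.972), Trav9d-3 (0.962), Klra7 (0.962), Mreg (0.959), Gimap7 (0.953), Fcer1a (0.952), Ikzf3 (0.950) and Satb1 (0.946). These correlations describe arrays that share mice and groups, and carry no test. Among the 10, Nkg7 (0.967), Cd8a (0.956), Cd3d (0.950), Cd3g (0.936) and Gzmb (0.934) followed the mean of the others most closely, and Gzma (0.564) and Cd79b (0.271) least, again over 24 arrays. Gzmc (0.834), Prf1 (0.771) and Il2rb (0.605) lay between. Klra7 and Trav9d-3, an NK receptor and a T cell receptor segment, were at 5.63 and 3.52 on average in KO IL-4 vehicle cultures, against 0.92 and 0.08 in WT IL-4 vehicle cultures.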

How the data were processed

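RNA of bone marrow-derived macrophage cultures was hybridised to 24 Affymetrix mouse arrays. The authors ran GC-RMA in GeneSpring and deposited a ratio for each probe set, for which each array had been scaled to its median and each probe set then to its median among the arrays (86.3% of probe sets had a median of 1 within 0.001). GCOS and GCRMA also stand, with no version, in the processing notes of the submitters. A further division by vehicle controls that the methods name is not in these values. The deposited ratios were used as log2 ratios without further scaling. They hold no level and no depth, so the number of arrays limits the precision, and the 37 values at the lowest ratio of 0.01 are bounds. The array medians lay between -0.225 and 0.0922 (log2).

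After 64 controls were removed from 45101 probe sets, 45037 were fitted at once over the 8 groups (limma 3.58.1, R 4.3.3; eBayes with no variance trend, since average ratios do not rank probe sets by level; 16 residual degrees of freedom). Called meant two-sided, an adjusted p (Benjamini-Hochberg) below 0.05, and a change of 1.5-fold or more. Each gene was read from the probe set whose mean log2 ratio was highest, and 34945 probe sets had 1 symbol. This is a convention and no ranking by level. High KO IL-4 arrays raise that mean, and for Il2rb and Prf1 the probe sets differ, as the report gives. Named genes were the 10 genes, up to 4 others per list by size of the KO difference, up to 4 list genes called in WT, and the 8 most alike in pattern. Further list genes were named after their values were seen. The genes and lists were chosen with earlier results of these data known. The table had 0 unused columns. The number that opens each sample title was read as the mouse. On that reading 1 animal gave 4 cultures, so the numbers are those of animals. The tests reported were not paired, and the mouse as a block was an alternative. Over all probe sets, deviations of same-mouse arrays from their group means correlated at a mean r of 0.0106 over 36 pairs, with 0 above 0.1. This was not computed for the 10 genes alone. The fits were tested on simulated data. Alternatives were the mouse as a block, quantile or median scaling, a variance trend, fewer arrays in the fit, the methods' t-test, the mean of a gene's probe sets, probe sets with a median of 1, and arrays left out.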

Additional observations from a re-analysis of the deposited data

Results flagged for a closer look

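Cd79b moved in opposite directions with IL-4 in the genotypes in every mouse. With vehicle the KO difference was 1.68 and the WT difference -3.42, so they lay 5.10 apart, and with RSG they were 1.07 and -1.64, 2.71 apart. Cd3g with RSG in IL-4 cultures moved by -0.68 in KO and by 0.32 in WT, a difference of -1.0. Il2rb with RSG in cultures without IL-4 moved by -1.25 in KO and by 0.66 in WT, a difference of -1.91. This rests on 1 of its 2 probe sets, since the other moved by 0.14 in KO and by -0.65 in WT. Each of these 4 was singled out because all 3 KO mice moved one way and all 3 WT mice the other, and the difference was not tested.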

How the results depend on the processing

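The count of the 10 genes called with IL-4 in WT with vehicle, 4, was 1 with the methods' t-test and 2 when only the compared arrays were fitted, and 3 to 4 with a mouse left out. Leaving out the WT control vehicle array of mouse 3, chosen after seeing the data, gave 6. Under RSG the count of 5 was 3 with the mean of all probe sets and 3 with WT arrays alone, and 3 to 6 with a mouse left out. For RSG in WT it was 0 to 0 without IL-4 and 0 to 1 with IL-4, where the 1 was Cd79b without mouse 3. With the mouse as a replicate block the counts were 5, 5, 0 and 0, and beside Nkg7 with vehicle the block changed no call among the 10.

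The median KO difference with IL-4 was 4.45 with vehicle and 3.87 with RSG after quantile normalization, and 4.82 to 5.32 and 4.07 to 4.27 with a mouse left out. The KO minus WT median with IL-4 and vehicle was 2.65 after quantile normalization, and 3.13 to 3.95 with a mouse left out, and with RSG 2.38 to 2.86. Without IL-4 it was -0.37 to 0.10 with vehicle and -0.82 to -0.23 with RSG. The RSG median in KO was -0.74 to -0.38 with IL-4 and -0.30 to 0.15 without.

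Among the 10 genes in WT, directions turned only for differences that were not called. With a mouse left out, Il2rb with IL-4 and vehicle ran from -0.50 to 0.98. For RSG without IL-4, Gzmb ran from -2.17 to 0.87, Cd8a from -0.0572 to 0.33 and Nkg7 from -0.25 to 0.28. For RSG with IL-4, Gzma ran from -0.19 to 0.40, Gzmc from -2.10 to 0.20, Cd3d from -0.24 to 0.11, Cd8a from -0.35 to 0.12, Nkg7 from -0.0450 to 0.62 and Il2rb from -2.57 to 0.56. Without the arrays with the highest stromal markers Il2rb with IL-4 and vehicle was -0.0220. The mean of probe sets gave Il2rb 0.35 with IL-4 under RSG and 0.0342 for RSG with IL-4, and Cd8a 0.13. For RSG without IL-4, centred arrays gave Nkg7 0.0189, and leaving out the control array of mouse 3 gave Nkg7 0.45 and Gzmb 0.24. The causes were not tested. Quantile normalization moved the share of higher calls with IL-4 in WT and vehicle to 44.5%, against 54.1%. Centring moved the median KO minus WT difference of all genes with IL-4 and vehicle by 0.215.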

Other observations

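A list of genes around the cytokine receptors that share the common γ chain was counted in both genotypes. It does not hold such receptors alone, but also the ligand genes Il7 and Il15, the kinase gene Jak3, the feedback gene Cish, and Crlf2. In KO IL-4 vehicle cultures 9 of 15 stood above KO control vehicle cultures without overlap and 1 below, against 11.8% and 23.2% of all genes, with Il2ra, the α chain of the IL-2 receptor, at 3.40, Cish at 2.39, Il7 at 1.96 and Il15ra at 1.43. Without Il2rb, which the list holds, it was 8 of 14 above and 1 below. The mean of the list lay between 0.16 and 0.56 on KO IL-4 vehicle arrays and between -0.06 and 0.47 on WT IL-4 vehicle arrays, which overlapped. In WT with vehicle limma called 5 of 15 higher and 3 lower, against 9.36% and 6.57% of all genes. Cish (3.52), Il7r (1.37), Crlf2 (0.98) and Il15 (-1.30) kept their calls in all 17 alternative settings. Il7 lost its call in 7 of 17, Jak3 and Il4ra in 6 of 17 each, and Il9r in 8 of 16. Without the control array of mouse 3 Il9r was at 1.92 (limma adjusted p = 0.0885), Jak3 at -0.56 (adjusted p = 0.0708) and Il7 at 1.86 (adjusted p = 0.0526). Of 8 plasmacytoid dendritic cell markers 3 were above and 1 below in KO, and in WT 1 was called higher, Cox6a2 (4.77, adjusted p = 0.000118), and 2 lower, Irf8 (-1.16) and Bst2 (-0.89), to be read against the same shares of all genes.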
